A study of Mus musculus with 32 samples.

Results

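The genes described here are 10 components of antigen presentation by major histocompatibility complex (MHC) class II molecules, namely H2-Aa, H2-Ab1, H2-Eb1, Cd74, Ciita, H2-DMa, H2-DMb1, H2-Oa, H2-Ob and Ctss. They were chosen by name, with earlier results of these data known. Each was matched by its Ensembl identifier to 1 of the 32285 genes in a table of RNA sequencing counts from whole bladders. All 32 bladders came from female C57BL/6 mice and each library was labelled as a separate bladder. Young mice were 2 months of age (n = 6), middle-aged mice 10 months (n = 5) and untreated old mice 26 months (n = 6). A further 3 groups of 26 months were gavaged from 21 to 26 months on 3 days of each month. They received water (n = 5), the drug vehicle of 60% phosal, 30% PEG400 and 10% ethanol (n = 4), or dasatinib at 5 and quercetin at 50 mg/kg/day (D + Q) in that vehicle (n = 6). D + Q is a senolytic combination, a pair of drugs given to clear senescent cells. The study asked how transcripts of the bladder change with age and whether D + Q alters the change.

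MHC class II molecules carry peptides from proteins taken up by endocytosis to the surface of antigen-presenting cells, where CD4+ T cells read them. An alpha and a beta chain (H2-Aa with H2-Ab1 in the I-A molecule, and H2-Eb1 as the beta chain of I-E) assemble on the invariant chain, the product of Cd74. Cathepsin S, the product of Ctss, trims the invariant chain, H2-DM (H2-DMa with H2-DMb1) releases the fragment left in the groove and edits the peptide, and H2-O (H2-Oa with H2-Ob) holds H2-DM in check, mainly in B cells. Ciita encodes the coactivator that binds the factors on class II promoters and sets how strongly they are transcribed. B cells, dendritic cells and activated macrophages are the usual sources of these transcripts, and interferon gamma can induce them elsewhere. C57BL/6 mice lack a working alpha chain of I-E, so an H2-Eb1 transcript in this strain is not a measure of I-E at the cell surface.

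Of the 10 genes, 7 lie together on chromosome 17, between the start of H2-Oa at 34092340 and the end of H2-Eb1 at 34316674 in mm10 coordinates of the count table. Cd74, Ciita and Ctss lie on other chromosomes. Promoter windows of RefSeq (GRCm38.p6, from 250 bases before to 50 bases after the start) were at hand for 7 of the 10 genes. Class II promoters are known for an X box bound by the RFX complex and a Y box bound by NF-Y, a fixed distance apart. The letters GNAAC, which open the X box, stood 25 to 45 bases before TGATTGG, the Y box without its first base, in 5 of the 7 genes and in 0.572% of all 32851 promoter windows. This spacing was chosen after the sequences had been seen, the search covered both strands, and TGATTGG also holds the inverse of CCAAT. H2-Aa, H2-Eb1, H2-DMb1, H2-Oa and H2-Ob held the pair, and H2-DMa and Ctss did not. The sequences below, 74 bases each from 110 to 37 bases before the start, show the pair in an alpha chain gene, a beta chain gene and a gene of H2-O, with both motifs in capitals.
H2-Aa (minus strand, chr17:34287860-34287933): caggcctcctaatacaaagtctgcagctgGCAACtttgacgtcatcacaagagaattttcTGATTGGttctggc
H2-Eb1 (plus strand, chr17:34305757-34305830): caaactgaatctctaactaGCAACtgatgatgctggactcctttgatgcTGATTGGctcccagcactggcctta
H2-Ob (plus strand, chr17:34238795-34238868): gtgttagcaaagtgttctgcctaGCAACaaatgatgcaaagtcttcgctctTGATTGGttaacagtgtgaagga

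None of these stretches overlaps an exon of the count table, and all lie just upstream of the genes named. From the first base of GNAAC to that of TGATTGG the distance was 31 bases in H2-Aa, 30 in H2-Eb1 and 28 in H2-Ob. The full Y box CTGATTGG, present in 4.10% of all windows, stood in H2-Aa, H2-Eb1 and H2-Oa. The longer X box core GNAACNGAT, present in 2.05% of all windows, stood in H2-Eb1 and H2-DMb1. An interferon gamma activated site, TTCNNNGAA, stood in 8.30% of all windows and in none of the 7 genes, although it stood in the window of H2-DMb2. The bare CCAAT, on either strand, was common (37.4% of all windows) and stood in 6 of the 7 genes, all but Ctss. These are matches of letters in a window and were not measured as binding.

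Counts per bladder summed to 15088372 to 52650259. Defining markers of bladder were high in every group, with summed uroplakin and other urothelial markers at 3496 to 4694 CPM and smooth muscle markers at 23503 to 37816 CPM. CPM, counts scaled to library size, used the trimmed mean of M values (TMM), and the median log2 fold change of all genes ran from -0.0047 to 0.0028 over the comparisons of 2 groups. Each comparison used edgeR's quasi-likelihood test over all genes with enough counts, with an adjusted p under 0.05 as the threshold, and all 10 genes were tested in every comparison. The lowest count of any of the 10 genes in a library was 8 (H2-Oa in a young bladder), above the floor of 3 counts taken as detection. The labels name no batch, so no value within a batch is given. In a whole organ, more cells of a type and more RNA per cell cannot be told apart.

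Levels of the 10 genes were first set in order per length, as TPM, a count scaled to gene length and library size. In untreated old bladders Cd74 stood at 1804 TPM, H2-Eb1 at 588, H2-Ab1 at 460, H2-Aa at 340 and Ctss at 266 TPM (means of 6). H2-DMb1 followed at 53.4, H2-DMa at 29.1, H2-Ob at 14.9, Ciita at 13.4 and H2-Oa at 9.27 TPM. The invariant chain was thus the most abundant and the chains of H2-O, with the coactivator, the least. Cd74 was the highest and H2-Eb1 the second in 32 of 32 bladders. The low end was less fixed, since H2-Oa was the lowest in 24 bladders and H2-Ob in 7, and H2-Ob stood above Ciita in 12.

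**Figure D1:**
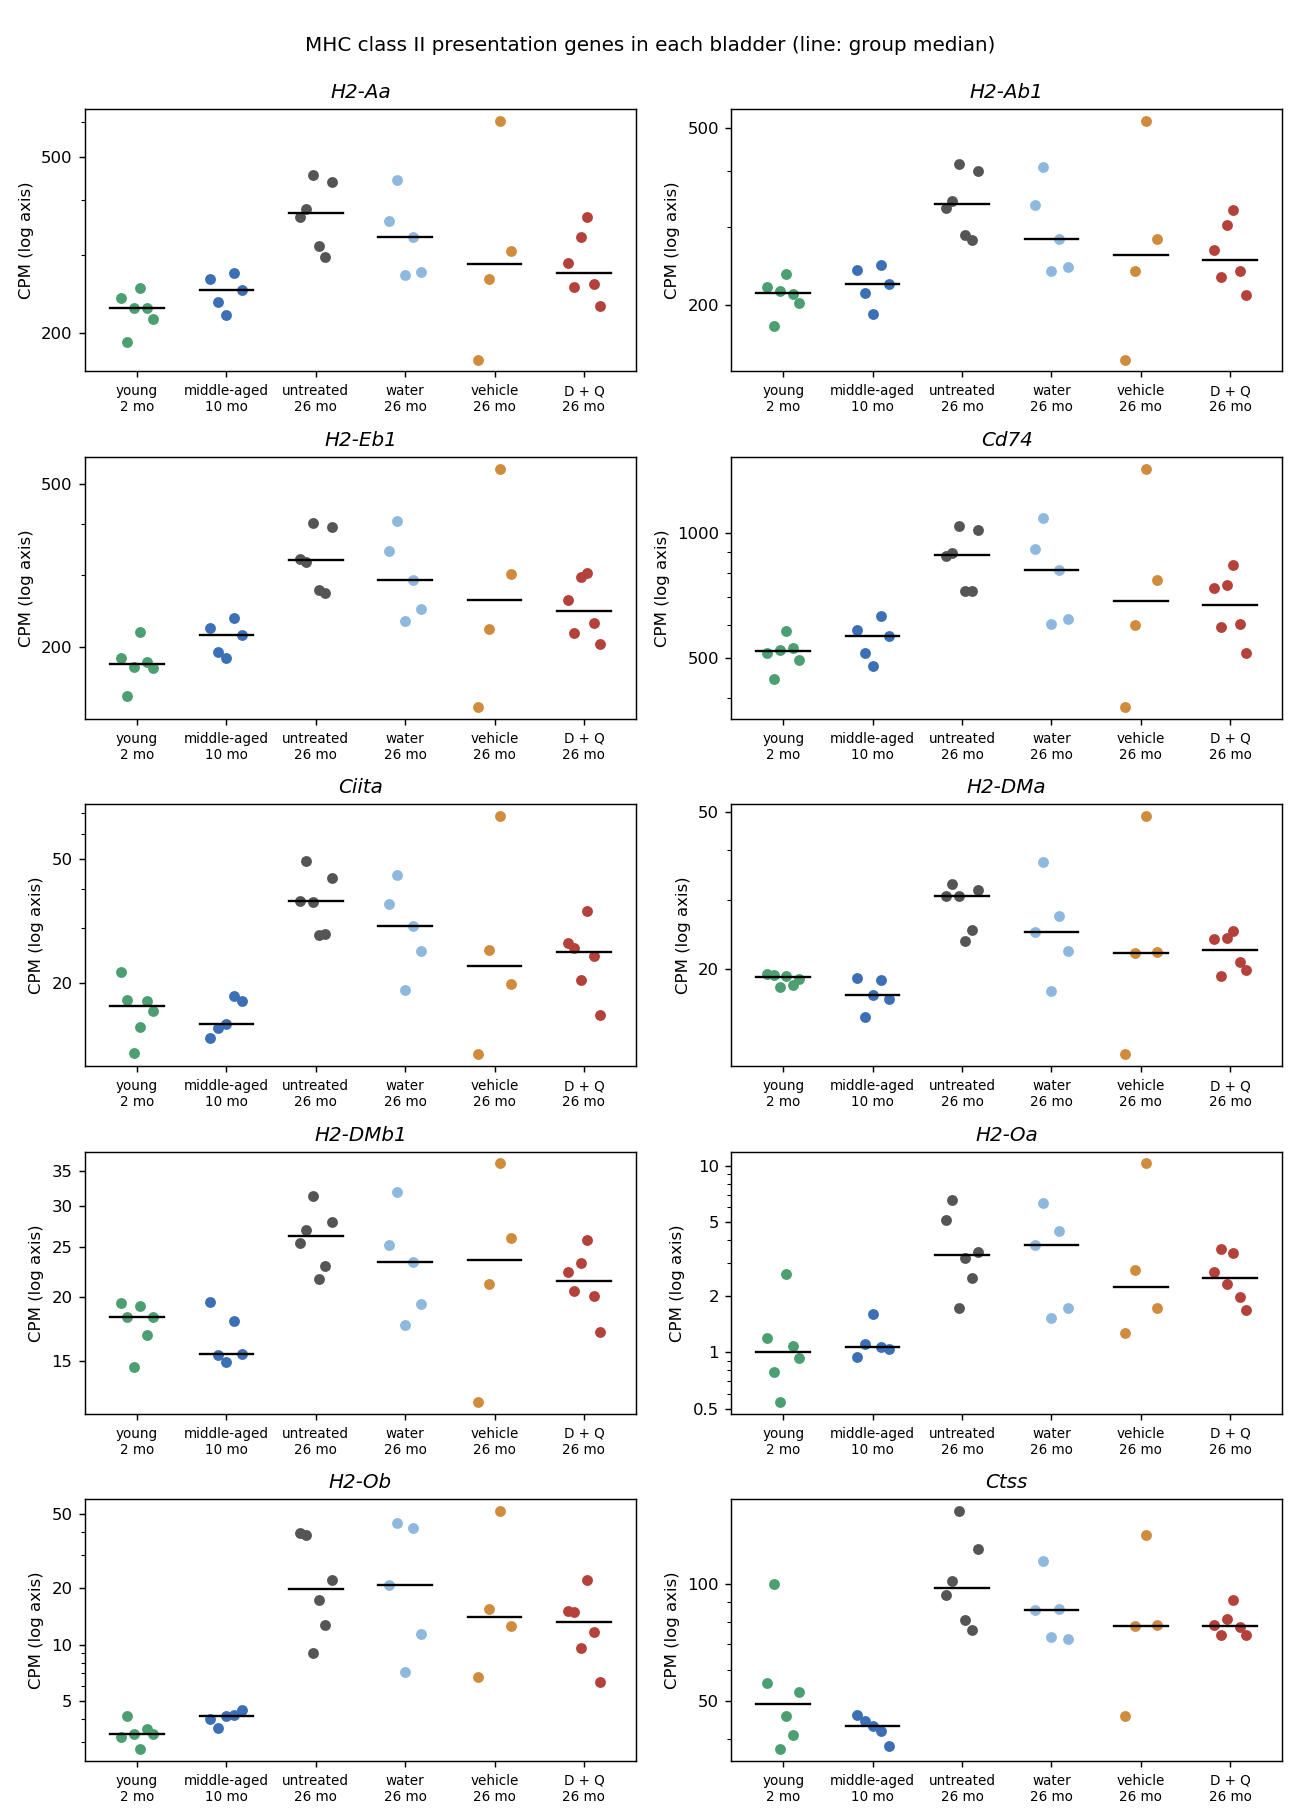
CPM of each of the 10 genes (vertical log axes) in the 32 bladders of the 6 groups, 1 point for each bladder and a line at each group's median. All 6 untreated old bladders lie above all 5 middle-aged bladders in each panel, and the 4 vehicle-treated bladders spread widest, from 12.2 to 48.8 CPM for H2-DMa.

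From 2 to 10 months none of the 10 genes passed the test in edgeR, and in DESeq2 the count was also 0, while 10.8% of all genes tested passed in either direction. Their log2 fold changes ran from -0.39 (Ctss) to 0.25 (H2-Ob), 5 above and 5 below 0. H2-Eb1 alone had an unadjusted p under 0.05, which 27.2% of all genes had (log2 fold change 0.19, SE 0.08, edgeR adjusted p = 0.145). Its levels were 151 to 218 CPM in young bladders (median 181) and 222, 194, 188, 235 and 214 CPM in middle-aged bladders. The groups overlapped for every gene. Without young bladder 4, which was the highest of its group for H2-Eb1, the gene passed (log2 fold change 0.24, edgeR adjusted p = 0.0349).

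From 10 to 26 months all 10 genes rose, against 13.0% of all genes tested that passed in this direction. For all 10, each untreated old bladder lay above each middle-aged bladder, which held for 7.61% of all genes. Log2 fold changes ran from 0.62 (H2-Aa) to 2.53 (H2-Ob) with a median of 0.73, and edgeR adjusted p from 6.25e-05 (Ciita) to 0.00158 (H2-Oa). The classical chains and the invariant chain rose by 1.54-fold to 1.62-fold, and Ciita, Ctss and both chains of H2-O by more than 2-fold.

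The transcripts of the classical chains H2-Ab1, H2-Aa and H2-Eb1 had similar fold changes. H2-Ab1, the beta chain of I-A, was at 240, 213, 191, 246 and 223 CPM in middle-aged bladders and at 280 to 416 CPM in untreated old bladders (median 337). All old values lay above the middle-aged ones, by 1.57-fold (log2 fold change 0.65, SE 0.11, edgeR adjusted p = 0.000914). H2-Aa, its alpha chain, went from 264, 234, 219, 273 and 249 CPM to 297 to 455 CPM (median 373), and H2-Eb1 from the middle-aged values above to 271 to 403 CPM (median 325). For H2-Eb1 the log2 fold change was 0.68 (SE 0.11, edgeR adjusted p = 0.000664). H2-Eb1 shares similar sequence with H2-Eb2, so its count is uncertain where reads could be split between them, and its span overlaps Gm20513 on the other strand.

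Cd74, the invariant chain that guides class II molecules to endosomes, was the most abundant of the 10 genes. Middle-aged bladders held 583, 514, 477, 631 and 563 CPM and untreated old bladders 724 to 1041 CPM (median 886). The lowest old bladder exceeded the highest middle-aged bladder, and the log2 fold change was 0.69 (SE 0.11, edgeR adjusted p = 0.00057).

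Ciita, the coactivator of class II transcription, had a larger fold change than any of these chains. It was at 13.2, 14.3, 14.8, 18.1 and 17.5 CPM in middle-aged bladders and at 28.5 to 49.3 CPM in untreated old bladders (median 36.5). No old bladder came near the middle-aged range, and the fold was 2.42 (log2 fold change 1.28, SE 0.15, edgeR adjusted p = 6.25e-05). An exon of Ciita overlaps one of Dexi on the other strand. The library kit marks strand, but the strand setting of the counting is not given in the sources used here, so reads of overlapping genes may be mixed.

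Ctss, the protease that trims the invariant chain, was at 46.1, 44.4, 43.2, 41.9 and 38.3 CPM in middle-aged bladders. In untreated old bladders it was at 76.1 to 154 CPM (median 97.8), all above the middle-aged range. The log2 fold change was 1.32 (SE 0.16, edgeR adjusted p = 0.000113). Young bladders were more spread, at 37.6 to 99.8 CPM (median 49.2), since young bladder 2 held 99.8 CPM and so stood inside the old range. The same bladder had the highest macrophage and the highest dendritic cell marker score of its group. Whether these markers play a part in its Ctss value was not tested.

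H2-DM exchanges the invariant chain fragment for peptide. H2-DMa went from 19.1, 15.2, 17.2, 18.8 and 16.8 CPM in middle-aged bladders to 23.6 to 32.9 CPM in untreated old bladders (median 30.6), a log2 fold change of 0.77 (SE 0.09, edgeR adjusted p = 0.000109). H2-DMb1 went from 19.5, 15.4, 14.9, 17.95 and 15.5 CPM to 21.7 to 31.4 CPM (median 26.2), a log2 fold change of 0.67 (SE 0.10, edgeR adjusted p = 0.000494). These values are close to those of the classical chains. H2-DMb1 has a close copy, H2-DMb2, and an exon of H2-DMa overlaps one of Brd2 on the other strand, so both counts are uncertain to that extent.

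H2-O, which restrains H2-DM, had the largest fold changes of the 10 genes and the widest spread among old bladders. H2-Ob was at 4.00, 3.56, 4.12, 4.21 and 4.47 CPM in middle-aged bladders. In untreated old bladders 1 to 6 it was at 39.5, 38.4, 8.998, 17.3, 12.8 and 22.1 CPM. The old values were all higher but spanned 4.39-fold between the highest and the lowest bladder, with a mean of 23.2 ± 13.0 CPM (SD, n = 6). The fold against middle-aged bladders was 5.78 (log2 fold change 2.53, SE 0.36, edgeR adjusted p = 0.000319).

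H2-Oa was at 0.950, 1.11, 1.61, 1.07 and 1.05 CPM in middle-aged bladders. In untreated old bladders 1 to 6 it was at 5.14, 6.54, 1.72, 3.20, 2.52 and 3.46 CPM. Old bladder 3 thus stood just above the highest middle-aged bladder. The log2 fold change was 1.72 (SE 0.31, edgeR adjusted p = 0.00158), and an exon of H2-Oa overlaps BC051537 on the other strand. The old bladders with the most H2-Oa, 1 and 2, were also those with the most H2-Ob, while old bladder 3 was the lowest for both yet the highest for H2-Aa (455 CPM) and Ctss (154 CPM).

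**Figure D2:**
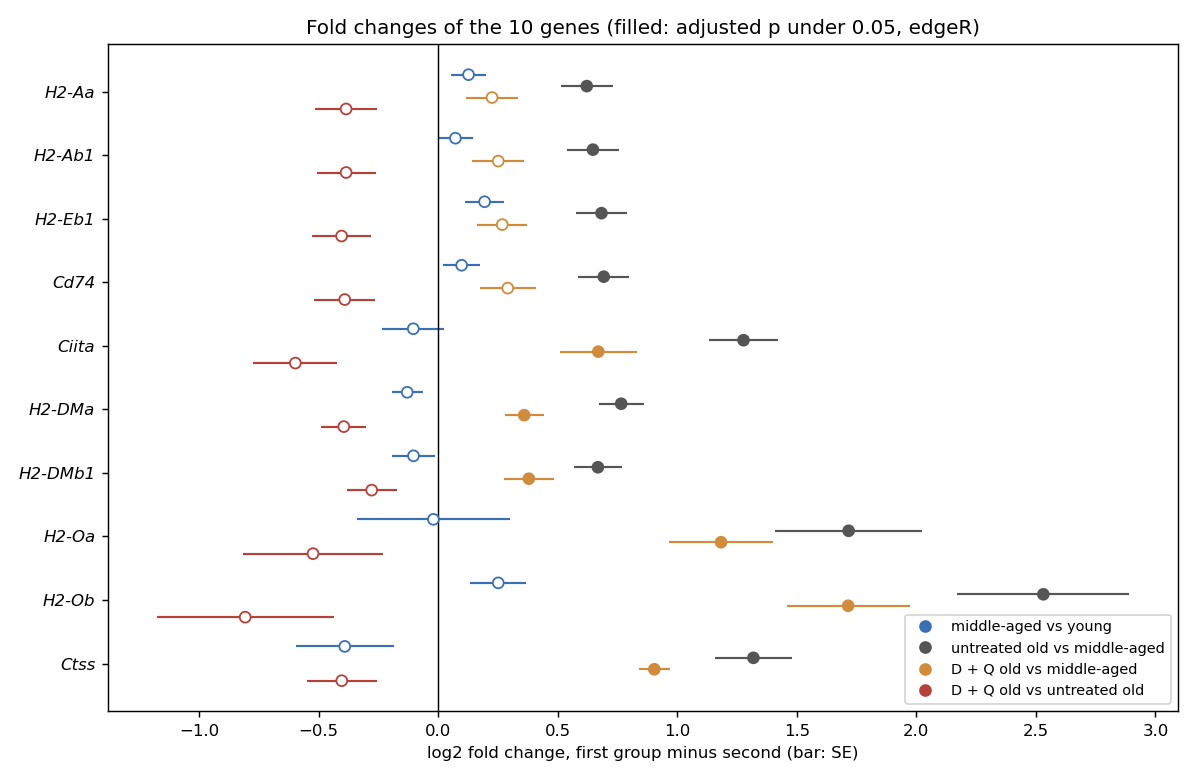
Log2 fold change (horizontal axis, first group minus second) with its standard error (bar) of each of the 10 genes in 4 comparisons, coloured by comparison, with filled circles where the edgeR adjusted p was under 0.05. All 10 genes pass in untreated old against middle-aged bladders, 6 in D + Q-treated old against middle-aged bladders, and none in the other comparisons drawn.

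Against young bladders the 10 genes were also all higher in untreated old bladders (12.6% of all genes passed in this direction), by a median of 0.82 on the log2 scale. The groups did not overlap for 8 of them, against 6.61% of all genes. The exceptions were H2-Oa, for which young bladder 4 held 2.63 CPM, and Ctss, for which young bladder 2 held 99.8 CPM. H2-Ob had the largest log2 fold change here too (2.77, SE 0.34, edgeR adjusted p = 7.25e-05), and H2-DMb1 the smallest (0.55, SE 0.09, edgeR adjusted p = 0.000838). Without young bladder 2 the log2 fold change of Ctss was 1.18 and its edgeR adjusted p 0.000493, against 0.92 and 0.0119 with it.

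The change after 10 months was set against the change before 10 months in a single fit of the 3 untreated ages. It was larger after 10 months for H2-Ab1, Cd74, Ciita, H2-DMa, H2-DMb1, H2-Ob and Ctss, 7 of the 10 genes, against 7.17% of all genes that passed in this direction. For Ciita the difference was 1.40 on the log2 scale (SE 0.27, edgeR adjusted p = 0.00552), and for H2-Ob 2.30 (SE 0.56, adjusted p = 0.0156). H2-Aa (0.51), H2-Eb1 (0.51) and H2-Oa (1.76, SE 0.64) had edgeR adjusted p between 0.0733 and 0.0889. DESeq2 called 9 of the 10 genes, H2-Oa (DESeq2 adjusted p = 0.0298) and H2-Aa (0.0394) among them, and H2-Aa also passed in edgeR without untreated old bladder 4 or 5. In a fit of all 6 groups only Ctss passed, and the calls of H2-Ab1 and Cd74 were lost when any of 10 and 6 single bladders, respectively, was left out.

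Ratios of genes within a bladder do not depend on the scaling of libraries and so show whether genes changed unequally. For 6 ratios of (TPM + 0.1), 18 tests were made with two-sided exact permutation, and 2 passed after Benjamini-Hochberg adjustment. Both set a gene against H2-Ab1 in untreated old and middle-aged bladders. Ciita to H2-Ab1 was 0.0152 to 0.0214 in middle-aged bladders (median 0.0200) and 0.0237 to 0.0388 in untreated old bladders (median 0.0286). These ranges do not overlap, with a difference of 0.61 in mean log2 ratio (exact p = 0.00433, adjusted p = 0.0390). Ctss to H2-Ab1 was 0.322 to 0.428 in middle-aged bladders (median 0.364) and 0.514 to 0.701 in untreated old bladders (median 0.548), a difference of 0.64 with the same exact p. Both p values are the smallest that 6 bladders against 5 allow.

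The remaining ratios missed the threshold. H2-Ob to H2-DMb1, a measure of the restraining chain against the editing chain, had a median of 0.0759 in middle-aged and 0.250 in untreated old bladders. Its ranges were 0.0663 to 0.0929 and 0.0910 to 0.487, so they overlap, and the difference was 1.63 in mean log2 ratio (exact p = 0.00866, adjusted p = 0.0519). For H2-Oa to H2-DMa the difference was 0.83 (exact p = 0.0346, adjusted p = 0.117). H2-Eb1 to H2-Ab1 and Cd74 to H2-Ab1 differed by 0.03 and 0.05 between these groups (adjusted exact p = 0.312 and 0.122). H2-Eb1 to H2-Ab1 differed by 0.13 between 2 and 10 months (exact p = 0.0130, adjusted p = 0.0584).

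**Figure D3:**
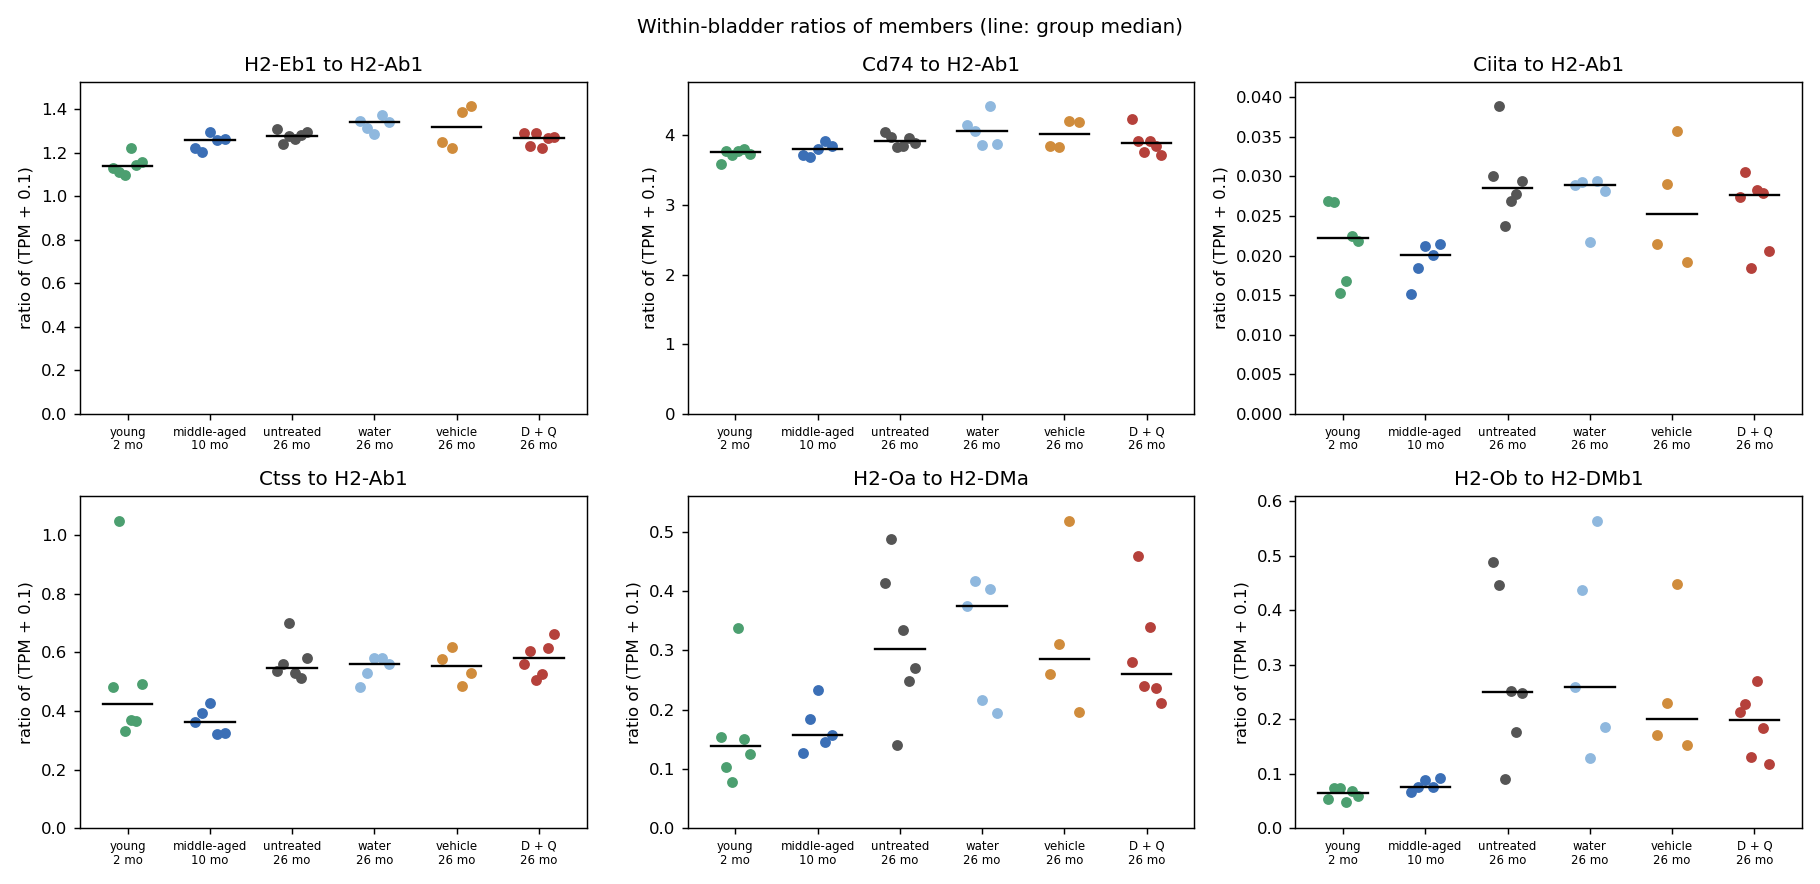
Ratios of (TPM + 0.1) of 2 genes within each bladder (vertical axes from 0), for 6 pairs of genes in the 6 groups, with 1 point for each bladder and a line at each group's median. Ciita to H2-Ab1 and Ctss to H2-Ab1 sit higher in all 6 untreated old bladders than in all 5 middle-aged bladders, while H2-Ob to H2-DMb1 spreads from 0.0910 to 0.487 among the untreated old bladders.

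Other genes of the pathway were taken from a list of 15, of which 13 could be tested. From 10 to 26 months 9 of these rose and none fell, with a median log2 fold change of 0.66 beside -0.0047 over all genes. H2-Eb2, a second beta chain gene, rose from 0.383 ± 0.160 CPM (SD, n = 5) to 5.33 ± 2.98 CPM (SD, n = 6), with a log2 fold change of 3.82 (SE 0.49, edgeR adjusted p = 0.000144). H2-DMb2 rose from 3.34 ± 0.420 to 18.2 ± 9.15 CPM, with a log2 fold change of 2.47 (SE 0.33, edgeR adjusted p = 0.000184). The genes they resemble, H2-Eb1 and H2-DMb1, had log2 fold changes of 0.68 and 0.67, and the differences were not tested. March1, a ubiquitin ligase that removes class II molecules from the surface, rose by 1.46 on the log2 scale (SE 0.15, edgeR adjusted p = 2.5e-05). In middle-aged against young bladders none of the 13 passed in edgeR.

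Transcription factors linked to class II expression, both those on the X and Y boxes and factors of the cell types, changed in part. Of 10 tested, Irf4 (1.89, SE 0.29), Irf8 (0.70, SE 0.11) and Spi1 (0.70, SE 0.12) rose on the log2 scale from 10 to 26 months, and these are factors of B cells, dendritic cells and myeloid cells. The other 7, subunits of RFX and NF-Y with Creb1, had log2 fold changes of -0.08 to 0.15 and did not pass. The median of the list was 0.06. Rfx5, a subunit of the RFX complex, had risen from 2 to 10 months by 0.22 (SE 0.05, edgeR adjusted p = 0.0169). It was 1 of 10 on the list to pass in that step, near the 10.8% of all genes.

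Of 10 tested genes of the interferon gamma axis, 9 rose from 10 to 26 months, with a median log2 fold change of 0.65. The chemokine Cxcl9 rose by 4.62 (SE 0.62, edgeR adjusted p = 0.000201) and Cxcl10, another chemokine, by 2.04 (SE 0.37). Cxcl9 had fallen by 2.34 from 2 to 10 months (edgeR adjusted p = 0.0460), when none of the 10 class II genes passed. In that step 1 of 10 genes of this axis passed, near the 10.8% of all genes. Ifng itself had too few counts to be tested in the age comparisons.

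Markers of the cells that carry class II molecules moved with these genes from 10 to 26 months. B cell markers summed to 7.80 to 16.0 CPM in middle-aged and 84.9 to 262 CPM in untreated old bladders, and 9 of 10 rose, with a median log2 fold change of 3.97. Ms4a1, which encodes CD20, was at 0.787 ± 0.521 CPM (SD, n = 5) and then 25.4 ± 11.2 CPM (SD, n = 6), and rose by 5.00 on the log2 scale (SE 0.42). Macrophage markers summed to 504 to 577 and 686 to 1098 CPM, and 9 of 10 rose, with a median of 0.71. Adgre1, which encodes F4/80, was the exception (0.42, SE 0.16, edgeR adjusted p = 0.0835).

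Conventional dendritic cell markers summed to 75.4 to 86.7 and 86.8 to 123 CPM, and 5 of 9 rose, among them Flt3 (0.47, SE 0.09, edgeR adjusted p = 0.00283) and Xcr1 (0.96, SE 0.15). The median of that list was 0.47. T cell markers rose in 7 of 7 tested genes (median 2.51), plasma cell markers in 5 of 6 (median 2.48) and pan-leukocyte markers in 3 of 3, with Ptprc, which encodes CD45, at 1.70 (SE 0.15). Over all genes tested in this step, 1879 of 17156 passed as lower. Of the urothelial markers 3 of 6 fell, among them Upk2 (-0.23, SE 0.06), and the median was -0.15. Of the smooth muscle markers 1 of 5, Myh11 (-0.24, SE 0.07), fell, while the other 4 had log2 fold changes of -0.10 to 0.15, and the median was -0.09. Of the list for lymph node, fat and skeletal muscle, 4 genes had enough counts, and 1, Ckm of muscle, passed (-0.33). The part of the B cell, dendritic cell and macrophage markers in the class II changes was not tested.

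From 2 to 10 months, when none of the 10 class II genes passed, some of these markers had already moved. In this step 10.8% of all genes passed in either direction. Of 8 tested B cell markers 4 rose, with a median log2 fold change of 1.001, among them Cd79a (1.37, SE 0.38), a chain of the B cell receptor. Of 6 plasma cell markers 2 rose, Jchain (3.48, SE 0.55), the joining chain of secreted antibodies, and Mzb1 (2.06, SE 0.56), with a median of 0.36. Near the share of all genes, 1 of 10 macrophage markers, Lyve1 (-0.50, SE 0.08), fell, and the median of that list was -0.30. Of 9 dendritic cell markers 1, Cd209a (0.59, SE 0.08), rose, also near that share, with a median of -0.15.

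Gavage alone was compared with no treatment at 26 months. In water-treated against untreated old bladders none of the 10 genes passed in edgeR or DESeq2, and 1.0% of all genes passed in edgeR. None of the 10 had an unadjusted p under 0.05, which 16.0% of all genes had. Log2 fold changes ran from -0.29 to 0.11, with 9 of the 10 genes below 0 and a median of -0.17. In vehicle-treated against untreated old bladders none passed by either tool, and 0.0% of all genes passed in edgeR. None had an unadjusted p under 0.05 here either, which 8.39% of all genes had. There the log2 fold changes ran from -0.33 to 0.09, with SE between 0.23 and 0.57. Again 9 of the 10 genes were below 0, with a median of -0.16.

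Vehicle-treated bladders were the most spread of the groups. Cd74 was at 380, 599, 1429 and 771 CPM in vehicle-treated bladders 1 to 4, and Ciita at 11.8, 25.5, 68.6 and 19.8 CPM. H2-Ob was at 6.68, 15.4, 51.8 and 12.6 CPM. Bladder 3 was the highest and bladder 1 the lowest of the group for all 10 genes, and the same bladders had the highest and lowest scores of the B cell, dendritic cell and macrophage markers. Whether these markers play a part in the spread was not tested. The coefficient of variation of the 10 genes in this group was 41.4% to 106%. Without bladder 3 all 10 log2 fold changes against untreated old bladders were negative (-1.01 to -0.39), and without bladder 1, 9 of 10 were positive (up to 0.40), with no gene past the threshold either way.

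All 10 genes had lower fitted levels after D + Q than in untreated old bladders, and none passed in edgeR, where 0.0% of all genes passed. Log2 fold changes ran from -0.81 (H2-Ob) to -0.28 (H2-DMb1), with a median of -0.40, while 49.3% of all genes lay below 0. Against the same untreated bladders, 9 of the 10 genes also lay below 0 after water and after vehicle (medians -0.17 and -0.16). An unadjusted p under 0.05 was reached by 9 of the 10 genes, against 6.67% of all genes in this direction, and H2-Oa was the exception. The edgeR adjusted p of the 10 genes were 0.239 to 0.459. DESeq2 called 185 genes of the table, 154 of them lower, and among them 2 of the 10, Ciita (DESeq2 adjusted p = 0.0420) and H2-DMa (0.0126). In simulated untreated old and middle-aged bladders DESeq2 called more false genes than edgeR did, and the D + Q comparison was not simulated. Over all alternatives the adjusted p of the 10 genes ran from 0.0126 to 0.726.

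H2-DMa had the smallest p of the 10 genes. It was at 19.2 to 24.97 CPM in D + Q-treated bladders (median 22.4) and at 23.6 to 32.9 CPM in untreated old bladders (median 30.6), so the groups overlap. Its log2 fold change was -0.39 (SE 0.09, edgeR adjusted p = 0.239). Ciita was at 15.8 to 34.1 CPM (median 25.2) against 28.5 to 49.3 CPM, with a log2 fold change of -0.60 (SE 0.18, edgeR adjusted p = 0.277). Cd74 was at 513 to 838 CPM (median 669) against 724 to 1041 CPM, with a log2 fold change of -0.39 (SE 0.13, edgeR adjusted p = 0.294). H2-Ob was at 6.31 to 22.2 CPM (median 13.2) against 8.998 to 39.5 CPM, with a log2 fold change of -0.81 (SE 0.37, edgeR adjusted p = 0.383). For every one of the 10 genes at least 1 D + Q-treated bladder lay within the untreated range.

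No within-bladder ratio passed in this comparison, with differences in mean log2 ratio from -0.43 (H2-Ob to H2-DMb1) to 0.02 (Ctss to H2-Ab1) and adjusted exact p of 0.355 to 0.881. Of 92 tested genes on the 12 lists none passed in edgeR, while 36 had an unadjusted p under 0.05. Of these 35 were lower in D + Q-treated bladders. Over all genes 2200 of 17037 had such a p, and 6.67% had it and were lower. Against the same untreated bladders, 11 list genes had such a p after water, 10 of them lower. After vehicle 3 had it, all lower. After D + Q the median log2 fold change was -0.69 over the B cell markers, -0.26 over the dendritic cell markers and -0.17 over the macrophage markers. B cell markers summed to 43.7 to 158 CPM in D + Q-treated bladders, and their part in the class II values was not tested.

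The vehicle-treated bladders share the solvent and the gavage with D + Q. Against them 0.0% of all genes passed in edgeR, none of the 10 genes passed in edgeR or DESeq2, and none had an unadjusted p under 0.05, against 4.18% of all genes. Log2 fold changes were -0.70 to -0.08 with SE of 0.22 to 0.51. Without vehicle-treated bladder 3 all 10 were positive instead (0.12 to 0.45). Against water-treated bladders none of the 10 passed by either tool, where again 0.0% of all genes passed in edgeR, and log2 fold changes were -0.92 to -0.11. The 3 comparisons of D + Q with other old groups share the D + Q-treated bladders.

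D + Q-treated old bladders were also compared with the middle-aged ones, a comparison that shares samples with those above. The levels of 6 genes, Ciita, H2-DMa, H2-DMb1, H2-Oa, H2-Ob and Ctss, were higher, against 7.58% of all genes that passed in this direction. For H2-DMa, H2-Oa, H2-Ob and Ctss the groups did not overlap, which held for 4.94% of all genes. Ctss was at 73.8 to 91.0 CPM in D + Q-treated bladders (median 78.1), with a log2 fold change of 0.90 (SE 0.06, edgeR adjusted p = 1.19e-05). H2-Ob had a log2 fold change of 1.71 (SE 0.26, edgeR adjusted p = 0.000776).

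H2-Aa, H2-Ab1, H2-Eb1 and Cd74, the classical chains and the invariant chain, had log2 fold changes of 0.23 to 0.29 with edgeR adjusted p of 0.128 to 0.221. With the replicate number as a block 8 genes passed, with the number in the library's name as the block 5, and in a fit of all 6 groups only H2-Ob and Ctss. The call of H2-DMb1 was lost when any of 6 single bladders was left out (middle-aged bladder 2, 3 or 5, or D + Q-treated bladder 1, 3 or 4). Without D + Q-treated bladder 6, the lowest of its group for Cd74 at 513 CPM, H2-Eb1 and Cd74 passed as well.

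Among the 21 bladders of 26 months the 10 genes were set against 3 marker lists, with the group means removed from both. Of 30 relations 27 passed (100000 permutations within groups, two-sided, Benjamini-Hochberg adjusted over the 30). Relations of other genes to these lists were not computed, so no share over all genes stands beside these counts. With B cell markers all 10 passed, with Pearson's r from 0.59 (Ctss) to 0.97 (H2-Ob). H2-Ob (Spearman's rho 0.98), H2-Oa (r = 0.91, rho 0.94) and Ciita (r = 0.85, rho 0.89) reached a permutation p of 1e-05, the smallest that these permutations can give. With dendritic cell markers all 10 passed as well, with r from 0.70 (H2-Ob) to 0.89 (H2-DMa).

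With macrophage markers 7 passed, and Ctss had the highest r (0.81, rho 0.72, permutation p = 0.00056, adjusted p = 0.0012). H2-Oa (r = 0.11), H2-Ob (r = 0.14) and Ciita (r = 0.47) did not pass, with adjusted permutation p of 0.745, 0.650 and 0.120. When the 2 bladders farthest from the median of a list were left out 20 relations passed. H2-Ob and H2-Oa kept r of 0.96 and 0.88 with B cell markers. Ctss then had r of 0.44 with B cell and 0.59 with macrophage markers, and H2-Oa and H2-Ob 0.46 and 0.48 with dendritic cell markers. These 4 no longer passed. With macrophage markers H2-Aa, H2-Ab1 and H2-DMa also no longer passed, at r of 0.58, 0.58 and 0.46. Both values of a relation come from the same library, and differences between the r values were not tested.

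**Figure D4:**
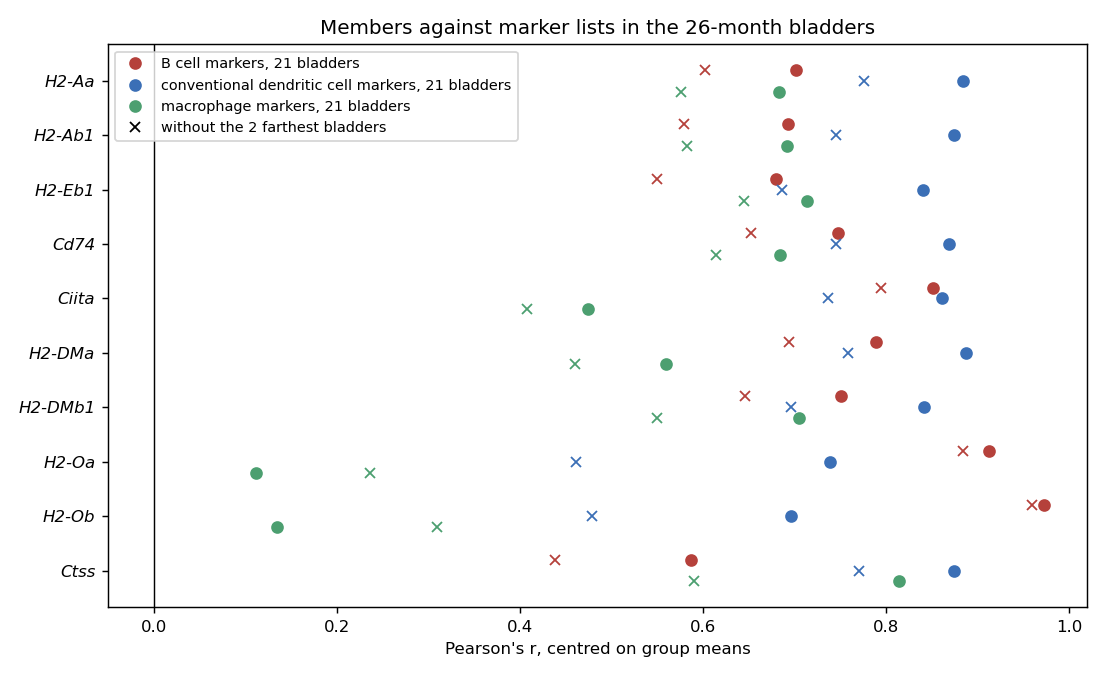
Pearson's r (horizontal axis) of each of the 10 genes with the mean log2(CPM + 0.1) of B cell, conventional dendritic cell and macrophage markers over the 21 bladders of 26 months, after removal of the group means, with crosses for r without the 2 bladders farthest from the median of the list. H2-Ob and H2-Oa lie at 0.97 and 0.91 with B cell markers and at 0.14 and 0.11 with macrophage markers. Their crosses with macrophage markers lie at 0.31 and 0.24.

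Genes with the most similar pattern were sought among 18093 genes over all 32 bladders by Pearson's r of log2(CPM + 0.1), as a description that includes the age groups. To the mean of H2-Aa, H2-Ab1 and H2-Eb1 the closest genes outside the 10 were Shisa5 (r = 0.90), Sema4d (0.90), Susd3 (0.89), Itgb7 (0.88) and Grk6 (0.88). To Ciita they were Sema4d (r = 0.95), Nup210 (0.94), Slamf7 (0.94), Myo1g (0.94) and Akna (0.94). Sema4d, which encodes a semaphorin of lymphocytes, was in both sets.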

How the data were processed

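RNA was sequenced from 32 whole bladders in 6 groups of age and treatment as the labels give them. The authors prepared libraries with a stranded total RNA kit (Illumina TruSeq), aligned reads to mm10 with STAR 2.7.3 and counted them per gene with Subread featureCounts, and the deposited counts are raw whole numbers. Beside the counts, the deposited table holds another quantity, the summed length of a gene's exons in bases, as the authors' counting tool wrote it. The strand setting of the counting is not given in the sources used here. A table of log-scale expression that the authors deposited was not used.

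Of 32285 genes, 32158 had a symbol. The members and gene lists were chosen with earlier results of these data known. Of 99 list genes, 96 were matched (H2-Ea, H2-Ea-ps and Fdcsp are not analysed here). Counts were fitted with edgeR 4.0.16 in R 4.3.3 (TMM, filterByExpr, glmQLFit and glmQLFTest, only the groups compared), with Benjamini-Hochberg adjustment over all genes tested. TPM used the summed exon length. CPM used TMM factors of all 32 bladders. Where nothing says how bladders were drawn, p-values set differences against the variation among these samples only. Counts summed to 15088372 to 52650259 per bladder, and the floor of 3 counts equals 0.0570 to 0.199 CPM. Floors cover counting error only. No 2 libraries held identical counts. The fits were tested on simulated untreated old and middle-aged bladders. DESeq2 called more false genes there and was given a wider limit on them than edgeR. Python 3.11.15, scipy 1.17.1 and matplotlib 3.10.9 served for ratios, relations and plots.

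Named genes are the 10 members, H2-Eb2, H2-DMb2, defining markers (Ptprc, Ms4a1, Adgre1, Flt3, Upk2, Myh11), the 3 largest changes past the threshold of each list in the age comparisons, and the 5 genes most like each pattern. Those 3 were printed only in part, and values of some listed genes are not reported here. Alternatives were DESeq2 1.42.0, RLE factors, no filter, a minimum of 10 counts per bladder, a joint fit of all 6 groups, the replicate number (or, chosen after seeing the data, the number in the library's name) as a block, each bladder left out, other pseudocounts, count ratios and Spearman's rho.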

Additional observations from a re-analysis of the deposited data

Results flagged for a closer look

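Levels of single bladders stood apart from their group by Dixon's test in 4 of the 60 sets of a gene and a group, where chance gives about 3. H2-Oa was at 2.63 CPM in young bladder 4, at 1.61 CPM in middle-aged bladder 3 and at 10.3 CPM in vehicle-treated bladder 3. Ctss was at 99.8 CPM in young bladder 2.

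The change from 10 to 26 months differed from that from 2 to 10 months, in the edgeR contrast of the 3 ages, for 7 genes. The difference on the log2 scale was 0.59 for H2-Ab1, 0.61 for Cd74, 1.40 for Ciita, 0.91 for H2-DMa, 0.79 for H2-DMb1, 2.30 for H2-Ob and 1.73 for Ctss. All 7 changed more after 10 months, over a step that was also longer and was not scaled to time.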

How the results depend on the processing

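All 10 genes passed from 10 to 26 months under all alternatives and with any bladder left out. DESeq2 called 2 genes after D + Q against no treatment, and a fit of all 6 groups called 2 in D + Q-treated against middle-aged bladders and 1 in the contrast of the age steps. With a minimum of 10 counts per bladder H2-Oa was not tested against young bladders, and 9 genes passed there. Of the other alternatives for single genes, 679 kept direction and side of the threshold, 16 lost and 7 gained a call. The cause of these shifts was not tested. With single bladders left out, 0 to 1 gene passed from 2 to 10 months and 0 to 5 ratios passed, where a smaller group also raises the smallest exact p to 0.00794 or 0.00952.

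The main fits did not pair bladders by the replicate numbers of the sample titles. Correlations of same-numbered deviations were -0.30 to 0.16, and not every pair exceeded 0.1 in any comparison. In the 3 comparisons of untreated ages, 3 of 5, 3 of 5 and 3 of 6 bladders were closest to their own number. In the other comparisons 0 to 2 were. Such correlations cannot decide whether the bladders were paired. The names of the libraries carry other numbers for 3 middle-aged, 1 water-treated and 2 vehicle-treated bladders. Matched by those, a choice made after seeing the data, the correlations were -0.30 to 0.22, and again not every pair exceeded 0.1 in any comparison, with 0 to 3 bladders closest to their own number. With the replicate number as a block 10 genes passed from 10 to 26 months, 8 in D + Q-treated against middle-aged bladders and 5 in the contrast of age steps. The block turned H2-Oa in vehicle-treated against untreated old bladders to -0.53, and in D + Q-treated against vehicle-treated bladders H2-Aa to 0.0241, H2-Ab1 to 0.0625, Cd74 to 0.0399, Ciita to 0.0927, H2-DMb1 to 0.0379, H2-Oa to 0.12 and Ctss to 0.0560. With the library number as a block 10, 5 and 6 genes passed in the same 3 comparisons, and the block turned H2-Ob in water-treated against untreated old bladders to -0.16, H2-Oa in vehicle-treated against untreated old bladders to -0.69 and Ctss in D + Q-treated against vehicle-treated bladders to 0.0161.

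Left-out bladders turned log2 fold changes that had not passed. From 2 to 10 months H2-Oa ran from -0.17 to 0.30, and in water-treated against untreated old bladders H2-Oa from -0.40 to 0.14 and H2-Ob from -0.19 to 0.36. In vehicle-treated against untreated old bladders H2-Aa ran from -0.60 to 0.0537, H2-Ab1 from -0.62 to 0.0084, H2-Eb1 from -0.59 to 0.0942, Cd74 from -0.59 to 0.0781, Ciita from -0.97 to 0.0285, H2-DMa from -0.64 to 0.0850, H2-DMb1 from -0.39 to 0.0911, H2-Oa from -0.97 to 0.40 and H2-Ob from -1.01 to 0.19. In D + Q-treated against vehicle-treated bladders H2-Aa ran from -0.44 to 0.21, H2-Ab1 from -0.40 to 0.24, H2-Eb1 from -0.50 to 0.18, Cd74 from -0.47 to 0.21, Ciita from -0.63 to 0.37, H2-DMa from -0.49 to 0.25, H2-DMb1 from -0.37 to 0.12, H2-Oa from -0.93 to 0.45, H2-Ob from -1.01 to 0.20 and Ctss from -0.29 to 0.24. In D + Q-treated against water-treated bladders H2-DMb1 ran from -0.21 to 0.0174 and Ctss from -0.17 to 0.0088. Log2 ratios after D + Q against no treatment ran from -0.0339 to 0.0034 for Cd74 to H2-Ab1, from -0.0169 to 0.0842 for Ctss to H2-Ab1 and from -0.26 to 0.10 for H2-Oa to H2-DMa. Depth limits H2-Oa most, with 8 counts in its lowest library.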
